A study of Mus musculus with 9 samples.

Results

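Transcripts of 9 genes of the retinoic acid pathway were followed in mouse tumours, with Crabp1, which encodes a cytosolic binding protein of retinoic acid, as the gene that led to the choice. The other genes were Crabp2, Aldh1a1, Aldh1a2, Aldh1a3, Rara, Rarb, Rarg and Stra6. They were found by their symbols in the gene-name column of the count tables, and all 9 were listed among 42454 names. Crabp1 was chosen by its counts per 1000000 (CPM) in these same libraries, which was lower in CD43-KO than in Vec tumours, so its difference is given as a description with no test. The other 8 genes came in through the pathway, and their differences are read from a fit across all genes.

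The study compared 5 CD43-KO tumours with 4 Vec tumours by bulk RNA sequencing. The CD43-KO tumours grew from MC38 cells with a knockout of CD43, a sialylated membrane glycoprotein, and the Vec tumours from MC38 cells labelled Vec, whose genotype is given as WT. All 9 were carried by C57BL/6J mice and harvested at day 21 after inoculation. MC38 is a mouse colorectal carcinoma line, the host mice kept their own CD43 as far as the labels say, and the number of knockout clones is not given in the labels. Whole tumour tissue was extracted, so a level is one of carcinoma and host cells together, and fewer cells of a type cannot be told apart from less RNA per cell. Nothing in the labels says more of how the tumours of a group were obtained than that each came from a tumour-bearing mouse, and p-values measure the spread between them.

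Total counts were 44814061 to 62194418 in CD43-KO and 60751738 to 72114385 in Vec libraries. Spn, which encodes CD43, was at 6.81 to 33.6 CPM in CD43-KO tumours and at 41.0 to 53.8 CPM in Vec tumours. The 8 epithelial genes summed to 8.04 to 16.9 CPM in CD43-KO and 10.5 to 16.4 CPM in Vec tumours, most of it from Cdh1, the cadherin gene of epithelia, at 6.42 to 14.8 CPM in CD43-KO and 7.96 to 13.6 CPM in Vec tumours. Epcam was at 0.220 to 1.21 CPM in CD43-KO and 0.238 to 1.41 CPM in Vec tumours. Krt19 was at 0.255 to 0.845 CPM in CD43-KO and 0.366 to 0.961 CPM in Vec tumours, and Cldn4 at 0 to 0.917 and 0.015 to 1.22 CPM. Krt7 was lower in CD43-KO without overlap, at 0.051 to 0.185 CPM against 0.211 to 0.442 CPM, on at most 28 counts in a library. The groups did not overlap in 5.59% of all genes tested. The keratin genes Krt8 and Krt18 and the claudin gene Cldn7 were too low to be tested. CD43-KO replicate 3 stood apart in tissue transcripts. Its 8 skeletal muscle genes summed to 1158 CPM, while the remaining 4 CD43-KO tumours had 69.0 to 118 CPM and the Vec tumours 85.3 to 102 CPM. Its 7 fat genes summed to 743 CPM, while the remaining 4 had 24.0 to 43.7 CPM and the Vec tumours 42.8 to 69.7 CPM. Log2 fold changes of genes named by role are also given without this tumour where it turned their sign or moved them by over 1.5 times.

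Retinoic acid is made inside cells from vitamin A. STRA6 takes up retinol from its blood carrier, dehydrogenases such as RDH10 oxidise it to retinal, and the retinal dehydrogenases ALDH1A1, ALDH1A2 and ALDH1A3 turn retinal into retinoic acid. CRABP1 holds retinoic acid in the cytosol, where it can be passed to the CYP26 enzymes that break it down, while CRABP2 carries it to the nucleus. There the receptors RARα, RARβ and RARγ, paired with RXR, bind repeated hexamers in target genes and switch transcription on. In the gut, dendritic cells with ALDH1A2 use this pathway to give T cells the homing receptor CCR9.

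Promoter windows of 2 of the genes are shown, a carrier that differed and a receptor gene that is itself a classical target of retinoic acid. Each runs from 250 bases before to 50 bases after the start site, in the RefSeq tables of GRCm38.p6, and 7 of the 9 genes had such an entry. The Crabp1 window is chr9:54764498-54764797 on the plus strand, and capitals mark the GC box GGGCGG on either strand, which binds SP1-type factors. The Rarb window is chr14:16575427-16575726 on the minus strand, written along the gene, and capitals mark a DR5 retinoic acid response element.
Crabp1: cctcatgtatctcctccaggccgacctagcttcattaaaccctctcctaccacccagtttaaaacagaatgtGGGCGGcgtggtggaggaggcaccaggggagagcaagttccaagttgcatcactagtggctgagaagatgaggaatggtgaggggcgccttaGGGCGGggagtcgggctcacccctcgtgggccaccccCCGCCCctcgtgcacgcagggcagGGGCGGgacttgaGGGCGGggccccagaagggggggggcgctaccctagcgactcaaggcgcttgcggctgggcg
Rarb: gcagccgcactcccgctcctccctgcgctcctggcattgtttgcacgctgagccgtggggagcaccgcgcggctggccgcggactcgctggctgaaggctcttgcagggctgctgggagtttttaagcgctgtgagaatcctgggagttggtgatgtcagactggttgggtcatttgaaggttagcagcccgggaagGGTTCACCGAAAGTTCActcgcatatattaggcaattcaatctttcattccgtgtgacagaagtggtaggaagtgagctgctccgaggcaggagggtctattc

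The Crabp1 window held 5 GC boxes, none overlapping another motif searched, and at least 1 was found in 35.7% of the 32851 promoter windows of the table. Neither a DR5 nor a DR2 element, in which 2 copies of the receptor's 6-letter hexamer lie in the same direction 5 or 2 bases apart, was found in it on either strand. A DR5 element stood in 0.0974% and a DR2 element in 0.268% of all windows. Of the 7 genes with a window, Rarb alone had a DR5 match, which begins 53 bases before the start site. Of the 62 other retinoid genes considered below, 44 had a window, and the 1 with a DR5 match was Cyp26a1, the main enzyme of retinoic acid breakdown. A match is a description of letters, and no match speaks only for these windows.

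Of the cytosolic carriers, Crabp1 was lower in every CD43-KO tumour while Crabp2 overlapped between groups. Crabp1 (chromosome 9, 54764748 to 54773110, GRCm38) was at 22.2, 24.0, 20.6, 41.9 and 33.1 CPM in CD43-KO replicates 1 to 5, against 106, 94.3, 70.1 and 152 CPM in Vec replicates 1 to 4. The highest CD43-KO tumour lay well below the lowest Vec tumour. These values rest on 887 to 2460 counts in CD43-KO and 4977 to 8207 counts in Vec libraries. The mean was 28.4 ± 8.97 CPM over CD43-KO tumours (SD, n = 5) and 106 ± 34.2 CPM over Vec tumours (SD, n = 4), a ratio of 0.269, and the edgeR log2 fold change (CD43-KO over Vec, as throughout) was -1.90 ± 0.26 (SE). With each tumour left out in turn it was between -2.08 and -1.68.

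Crabp2 (chromosome 3, 87948693 to 87953372), the carrier to the nucleus, was at 110.4, 104, 162, 118 and 139.9 CPM in CD43-KO replicates 1 to 5, and at 152, 147, 134 and 174 CPM in Vec replicates 1 to 4. CD43-KO replicate 3 and replicate 5 lay inside the Vec range and the other 3 CD43-KO tumours below it. The log2 fold change was -0.26 ± 0.14, and the edgeR quasi-likelihood test over all genes did not pass (adjusted p = 0.391). The balance of both carriers can be read within each library, free of scaling between libraries. Per kilobase of exon, Crabp1 was at 0.332, 0.380, 0.209, 0.584 and 0.390 of the Crabp2 level in CD43-KO replicates 1 to 5, against 1.15, 1.06, 0.862 and 1.44 in Vec replicates 1 to 4. Per kilobase, Crabp1 was thus the less abundant carrier in all 5 CD43-KO tumours and in 1 of 4 Vec tumours, again as a description that the choice of Crabp1 fixed in part. By counts alone Crabp1 was below Crabp2 in every tumour, at 0.127 to 0.354 of it in CD43-KO and 0.523 to 0.873 in Vec tumours. Which carrier is the higher in Vec tumours therefore depends on the annotated exon lengths, 0.802 kb for Crabp1 and 1.322 kb for Crabp2. Fabp5, a fatty acid binding protein that also takes retinoic acid to another nuclear receptor, overlapped between groups. It was at 148, 152, 325, 44.5 and 48.2 CPM in CD43-KO replicates 1 to 5 and at 69.3, 39.7, 87.7 and 128 CPM in Vec replicates 1 to 4. Its log2 fold change was 0.82 ± 0.59 (edgeR adjusted p = 0.515), and 0.27 without CD43-KO replicate 3, the tumour at 325 CPM.

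**Figure D1:**
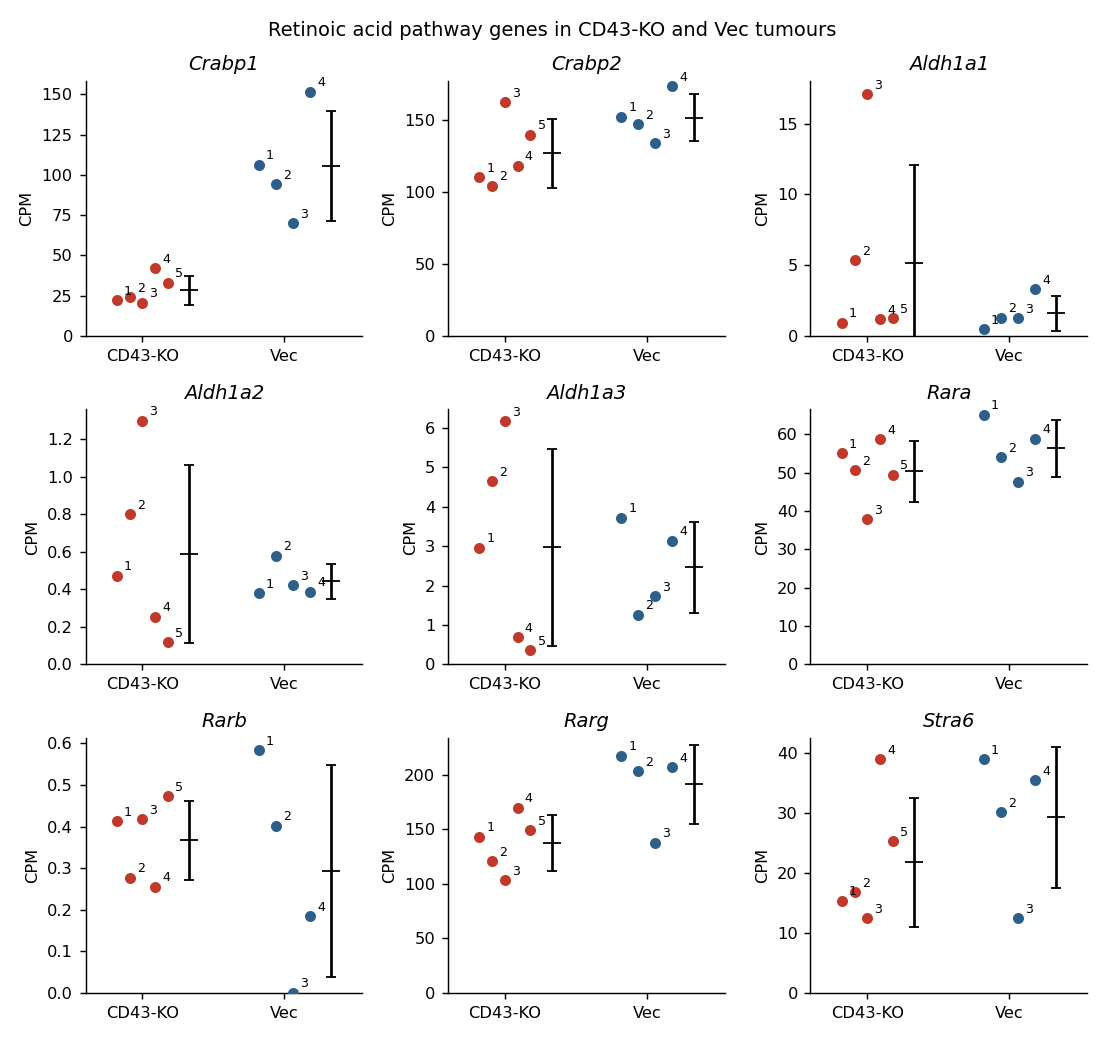
Levels of the 9 genes in each tumour, in CPM from 0, with CD43-KO on the left and Vec on the right of each panel. Points are tumours, numbered by replicate, and the bar beside them is the mean ± SD (cut at 0 for Aldh1a1). Crabp1 is the panel in which the groups do not overlap, at 20.6 to 41.9 CPM in CD43-KO and 70.1 to 152 CPM in Vec tumours.

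Across 18243 genes tested, edgeR called 0 at an adjusted p under 0.05 (0%), and it called 0 of these 9 genes. Unadjusted p-values lay under 0.05 for 7.75% of genes in the higher and 7.63% in the lower direction. DESeq2 called 3.66% of the 16733 genes to which it gave an adjusted p, 1.48% higher and 2.18% lower. Of the 9 genes DESeq2 called 1, which was Crabp1, lower. The groups did not overlap in 5.59% of genes, with CD43-KO below in 3.5% and above in 2.08%. Crabp1 was the 1 gene of the 9 without overlap. Since that contrast chose Crabp1, nothing is read from its DESeq2 call or from this count. Of the 9 genes, all of which passed the filter on low counts, 4 had a log2 fold change above 0 and 5 below, with a median of -0.16. Crabp1 is among the 5, so its choice weighs on this count and median, and no lean is read from them. Apart from Crabp1, those below 0 were Crabp2, Rara, Rarg and Stra6. Those above 0 were Aldh1a1, Aldh1a2, Aldh1a3 and Rarb. Over all genes tested 9859 lay above 0 and 8384 below, with a median of 0.03.

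Receptor transcripts came mostly from Rarg and Rara. Rarg (chromosome 15, 102234938 to 102257522), which encodes RARγ, was at 143, 121, 103, 169.7 and 149 CPM in CD43-KO replicates 1 to 5, against 217, 203, 138 and 207 CPM in Vec replicates 1 to 4. Vec replicate 3 lay among the CD43-KO tumours, and the other 3 Vec tumours lay above all of them. The log2 fold change was -0.48 ± 0.17, which did not pass over all genes with edgeR (unadjusted p = 0.0165, adjusted p = 0.256) or DESeq2 (adjusted p = 0.112). Rara (chromosome 11, 98927800 to 98974942), which encodes RARα, was at 55.1, 50.7, 37.8, 58.6 and 49.4 CPM in CD43-KO replicates 1 to 5, and at 65.1, 54.0, 47.6 and 58.8 CPM in Vec replicates 1 to 4. Its groups overlapped over most of their range (log2 fold change -0.16 ± 0.14, edgeR adjusted p = 0.578, and -0.08 without CD43-KO replicate 3).

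Rarb (chromosome 14, 16430839 to 17082331), the receptor gene with the response element shown above, was at the edge of detection in both groups. It had 27, 18, 18, 15 and 28 counts in CD43-KO replicates 1 to 5, and 37, 27, 0 and 10 counts in Vec replicates 1 to 4. The count of 0 in Vec replicate 3 allows up to 3 counts in a library of that depth, by counting error alone. Of its 5265 exon bases in GENCODE M21, 1793 also lie in exons of Top2b on the other strand, and reads of both genes cannot be told apart without a strand setting. The edgeR log2 fold change was 0.32 ± 0.79 (adjusted p = 0.859), and -0.10 without Vec replicate 3. Cyp26a1, the other gene with a DR5 element in its promoter window, was too low to be tested, at 0.061 to 0.341 CPM in CD43-KO and 0.037 to 0.283 CPM in Vec tumours.

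Uptake of retinol was represented by Stra6 (chromosome 9, 58063793 to 58154004). It was at 15.4, 16.8, 12.4, 39.0 and 25.3 CPM in CD43-KO replicates 1 to 5, and at 38.9, 30.1, 12.5 and 35.5 CPM in Vec replicates 1 to 4. The groups spanned nearly the same range, and the log2 fold change was -0.43 ± 0.39 (edgeR adjusted p = 0.611).

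The retinal dehydrogenase genes were low and varied widely between CD43-KO tumours. Aldh1a1 (chromosome 19, 20492583 to 20643463) was at 0.947, 5.33, 17.1, 1.19 and 1.25 CPM in CD43-KO replicates 1 to 5, and at 0.489, 1.296, 1.27 and 3.31 CPM in Vec replicates 1 to 4. The tumour rich in muscle and fat transcripts, CD43-KO replicate 3, was the highest, and the log2 fold change was 1.70 ± 0.95 with it (edgeR adjusted p = 0.407) and 0.45 without it (edgeR adjusted p = 0.748). The part of muscle and fat tissue in this value was not tested. Reads of Aldh1a1 may be shared with its close copy Aldh1a7, which was listed at up to 1.53 CPM in CD43-KO and 0.185 CPM in Vec tumours. Aldh1a3 (chromosome 7, 66390892 to 66427477) was at 2.96, 4.66, 6.18, 0.698 and 0.355 CPM in CD43-KO replicates 1 to 5, and at 3.73, 1.27, 1.73 and 3.14 CPM in Vec replicates 1 to 4. Every Vec tumour lay between CD43-KO replicates 4 and 5 on the low side and replicates 2 and 3 on the high side (0.27 ± 0.73 log2, edgeR adjusted p = 0.878). Aldh1a2 (chromosome 9, 71215789 to 71296243) had 31, 52, 56, 15 and 7 counts in CD43-KO replicates 1 to 5, and 24, 39, 30 and 21 counts in Vec replicates 1 to 4. Its CD43-KO tumours came in the same order as for Aldh1a3, from replicate 5 at the low end to replicate 3 (0.40 ± 0.59 log2, edgeR adjusted p = 0.759). With CD43-KO replicate 3 left out, Aldh1a2 differed by -0.10 and Aldh1a3 by -0.19 on the log2 scale.

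Set per kilobase of exon, the order of levels was the same in both groups apart from Crabp1 against Crabp2 and Aldh1a1 against Aldh1a3. In CD43-KO tumours the mean RPKM (CPM divided by exon length in kilobases) was 96.1 ± 18.1 for Crabp2, 35.4 ± 11.2 for Crabp1, 32.2 ± 6.05 for Rarg, 11.5 ± 1.81 for Rara and 3.74 ± 1.84 for Stra6 (SD, n = 5). In Vec tumours it was 132 ± 42.6 for Crabp1, 115 ± 12.5 for Crabp2, 44.9 ± 8.52 for Rarg, 12.9 ± 1.699 for Rara and 5.02 ± 2.02 for Stra6 (SD, n = 4). Crabp1 and Rarg were neighbours within their spread in CD43-KO tumours, as were Crabp1 and Crabp2 in Vec tumours. Aldh1a1 averaged 1.05 ± 1.40 in CD43-KO tumours and 0.442 ± 0.426 without CD43-KO replicate 3 (SD, n = 4), against 0.322 ± 0.244 in Vec tumours. Aldh1a3 averaged 0.643 ± 0.543 in CD43-KO tumours and 0.470 ± 0.438 without CD43-KO replicate 3, against 0.534 ± 0.251 in Vec tumours. Without that tumour the mean of Aldh1a3 was thus slightly the higher in CD43-KO tumours too, within a wide spread. That rests on replicate 1, with Aldh1a3 at 0.642 and Aldh1a1 at 0.192. In replicates 2, 4 and 5 Aldh1a1 was the higher, while Aldh1a3 was the higher in every Vec tumour. Aldh1a2 and Rarb were the lowest in both groups. Exon lengths are from GENCODE M21, which may not be the annotation the authors counted on.

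Crabp1, Rarg and Stra6 came in similar orders of tumours inside each group, which the comparison of groups did not use. From low to high, CD43-KO tumours came in the order of replicates 3, 1, 2, 5 and 4 for Crabp1 and for Stra6, and in the order 3, 2, 1, 5 and 4 for Rarg. Vec tumours came in the order of replicates 3, 2, 1 and 4 for Crabp1, and 3, 2, 4 and 1 for Rarg and Stra6, so the lowest Vec tumour was shared and the highest was not. Rdh10, the dehydrogenase that makes retinal, had the same CD43-KO order as Crabp1, with 27.0, 28.4, 18.6, 54.2 and 34.4 CPM in replicates 1 to 5, and was at 48.5, 48.1, 40.3 and 40.8 CPM in Vec replicates 1 to 4 (log2 fold change -0.45 ± 0.25, edgeR adjusted p = 0.407). Its Vec order, 3, 4, 2 and 1, was not that of Crabp1. Crabp2 had the Vec order of Crabp1, but came in the order 2, 1, 4, 5 and 3 in CD43-KO tumours. Rara had the Vec order of Rarg and Stra6, and 3, 5, 2, 1 and 4 in CD43-KO tumours. Aldh1a1, Aldh1a2, Aldh1a3 and Rarb had neither order of Crabp1. Orders were looked up only for the 9 genes and Rdh10.

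Leukocyte transcripts ran the other way across CD43-KO tumours. The 14 leukocyte genes summed to 911, 1124, 1522, 519.7 and 623 CPM in CD43-KO replicates 1 to 5, against 522 to 649 CPM in Vec tumours. The CD43-KO tumours highest in leukocyte transcripts were thus the lowest in Crabp1, Stra6, Rarg and Rdh10. Crabp2, Rara and Rarb were mixed, and Crabp2 was highest in replicate 3, at 162 CPM. How many of all genes have such an order was not counted. Vec tumours were mixed. Replicate 4 had both the highest sum and the highest Crabp1 level among them. Replicate 1 had the lowest sum and the highest levels of Rarg, Stra6 and Rdh10. All 14 leukocyte genes had a log2 fold change above 0 (median 0.81) with 5 at an unadjusted edgeR p under 0.05, while edgeR called 0 and DESeq2 1 of them. Over all 18243 genes tested, 9859 had a log2 fold change above 0 and 7.75% were higher at that unadjusted p. DESeq2 called 1.48% of its genes higher. Aldh1a2 and Aldh1a3 were highest in the CD43-KO tumours with the highest leukocyte sums, replicates 3, 2 and 1. When the mean log2 level of these genes entered the fit as a second term, which was added after seeing the data, the log2 fold change of Crabp1 was -1.53 ± 0.23, that of Crabp2 -0.30 ± 0.17, that of Rarg -0.21 ± 0.14 and that of Rarb 0.49 ± 0.99. The same fit turned the sign of Stra6 to 0.14 ± 0.31, Rara to 0.02 ± 0.14, Aldh1a1 to -0.51 ± 0.73, Aldh1a2 to -1.05 ± 0.45 and Aldh1a3 to -1.76 ± 0.66, and edgeR called 0 of the 9 genes in it. Among the other tissue lists, 7 endothelial genes summed to 76.0 to 165 CPM in CD43-KO and 96.4 to 112 CPM in Vec tumours, and 12 fibroblast genes to 2173 to 5831 CPM in CD43-KO and 3090 to 4402 CPM in Vec tumours. Apart from that fit, the part of these 3 lists in the differences was not tested. In the fit the leukocyte term, centred over the 9 tumours, was at 0.351, 0.746 and 1.107 in CD43-KO replicates 1 to 3. It was at -0.488 and -0.319 in CD43-KO replicates 4 and 5, and at -0.535 to -0.155 in Vec tumours. The fit thus rests mostly on CD43-KO tumours above the Vec range, and cannot tell leukocyte transcripts apart from their other traits. Replicate 3, rich in muscle and fat transcripts, lay furthest out.

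Skin transcripts were uneven too and leaned lower in CD43-KO tumours, and Rarg and Crabp2 are also expressed in skin. All 7 tested skin genes had a log2 fold change below 0 (median -1.30), as did 8384 of the 18243 genes tested. Their spread was wide, with 0 of them at an unadjusted edgeR p under 0.05 and 0 called by edgeR or DESeq2. The 8 skin genes summed to 543, 361, 298, 400.2 and 470.5 CPM in CD43-KO replicates 1 to 5, and to 490.4, 342, 592 and 901 CPM in Vec replicates 1 to 4. Most of this came from the keratin gene Krt14, at 291 to 449.9 CPM in CD43-KO and 337 to 657 CPM in Vec tumours. The other basal skin keratin gene Krt5 was at 31.8, 0, 0, 5.36 and 1.91 CPM in CD43-KO replicates 1 to 5, and at 14.3, 0.0894, 24.4 and 45.7 CPM in Vec replicates 1 to 4. Krt1, another keratin gene of the list, was at 0.0617 and 0 CPM in CD43-KO replicates 2 and 3. In Vec replicate 2 it was at 0.0298 CPM. Krt14 was at 356, 291 and 337 CPM in these same tumours, so the sum alone is no gauge of skin. The part of skin in the differences was not tested.

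**Figure D2:**
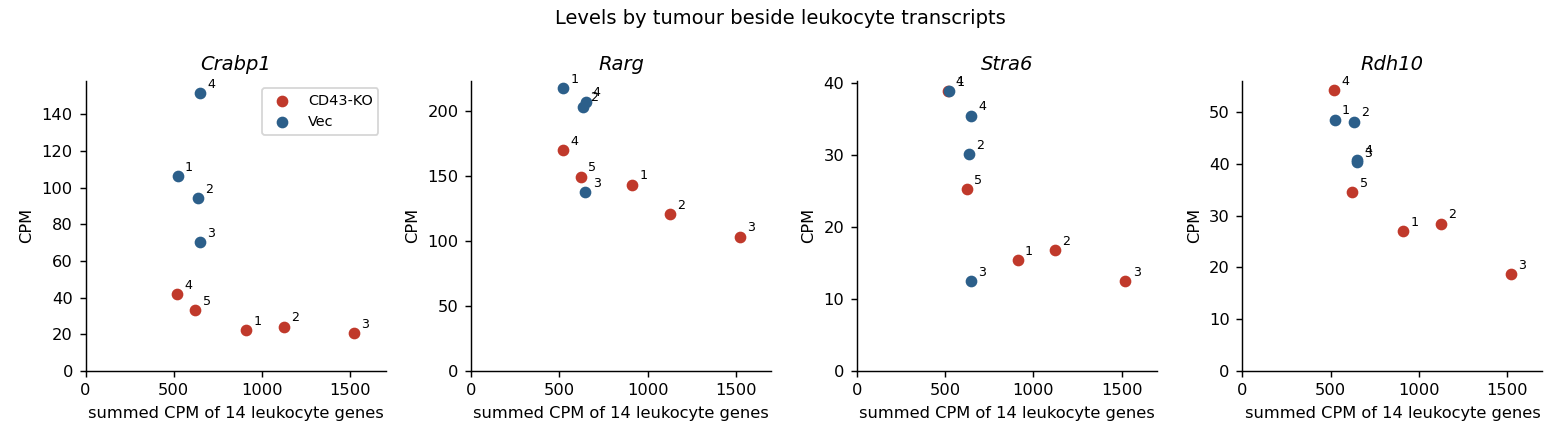
Levels of Crabp1, Rarg, Stra6 and Rdh10 in CPM (vertical axes) against the summed CPM of 14 leukocyte genes (horizontal axes), with a point for each tumour, numbered by replicate. The leukocyte sums run from 519.7 to 1522 CPM in CD43-KO and from 522 to 649 CPM in Vec tumours, and CD43-KO replicate 3, with the highest sum, has the lowest level of each gene among CD43-KO tumours.

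The rest of the pathway lay close to 0 as a whole. Of 62 further retinoid genes in 8 lists by role, 47 were tested, and edgeR and DESeq2 each called 0. DESeq2 called 3.66% of all genes to which it gave an adjusted p, and gave none to Rbp4 and Rbp7. At an unadjusted edgeR p under 0.05, 4 were higher and 3 lower, a share near the 15.4% of all genes tested. The groups did not overlap in 1 higher and 2 lower genes, near the 5.59% of all genes. DESeq2 without CD43-KO replicate 3, added after seeing the data, called 3 of them, Rbp2 lower and Dhrs9 and Crebbp higher, where it called 7.73% of all genes. The median log2 fold change of the 47 was 0.09, with 30 above 0 and 17 below, beside 9859 above and 8384 below over all genes.

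In uptake, carriage and storage of retinol, Rbp2, a cellular retinol binding protein known from intestine, was at 20.9, 15.8, 20.9, 20.7 and 18.5 CPM in CD43-KO replicates 1 to 5, against 24.8, 20.97, 28.7 and 28.5 CPM in Vec replicates 1 to 4. The groups touched without overlapping (log2 fold change -0.41 ± 0.13, edgeR adjusted p = 0.224). Rbp7, another cellular retinol binding protein, was at 0.119 to 0.325 CPM in CD43-KO and 0.211 to 0.537 CPM in Vec tumours (log2 fold change -1.05 ± 0.44, edgeR adjusted p = 0.298). These levels rest on at most 34 counts in a library. Dgat1, which can esterify retinol, had a log2 fold change of 0.21 ± 0.10 (edgeR adjusted p = 0.335). Rbp4, the blood carrier of retinol, which fat tissue also secretes, reached 4.11 CPM in CD43-KO replicate 3, while the remaining 4 CD43-KO tumours had 0.046 to 0.324 CPM and the Vec tumours 0.099 to 0.573 CPM. Its log2 fold change was 1.44 ± 1.18 with that tumour (edgeR adjusted p = 0.567) and -0.96 without it (edgeR adjusted p = 0.442).

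Between retinol and retinal, Dhrs9, a retinol dehydrogenase, was at 9.89, 6.12, 6.34, 3.29 and 6.24 CPM in CD43-KO replicates 1 to 5, against 4.23, 3.65, 3.27 and 2.22 CPM in Vec replicates 1 to 4. CD43-KO replicate 4 lay inside the Vec range and the other CD43-KO tumours above it (0.93 ± 0.30 log2, edgeR adjusted p = 0.236, DESeq2 adjusted p = 0.0561). Rdh5, a retinol dehydrogenase known from the eye, was at 4.14, 2.56, 3.32, 4.07 and 4.23 CPM in CD43-KO replicates 1 to 5, against 5.73, 4.77, 5.03 and 4.51 CPM in Vec replicates 1 to 4. Every CD43-KO tumour was lower than every Vec tumour (-0.45 ± 0.18 log2, edgeR adjusted p = 0.293). Adh5, an alcohol dehydrogenase gene, differed by -0.13 ± 0.08 log2 (edgeR adjusted p = 0.437). Breakdown was measured through Cyp26b1, at 23.4, 13.8, 16.2, 12.6 and 15.6 CPM in CD43-KO replicates 1 to 5 and at 15.6, 20.8, 10.6 and 10.55 CPM in Vec replicates 1 to 4 (0.18 ± 0.24 log2, edgeR adjusted p = 0.729).

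The partners of the receptors had small differences. Rxra and Rxrb, which encode the RXR partners, differed by 0.16 ± 0.11 and -0.16 ± 0.09 log2, and Ppard, the receptor served by FABP5, by 0.09 ± 0.15 (edgeR adjusted p of 0.503, 0.429 and 0.790). Without CD43-KO replicate 3 Ppard differed by 0.16 log2. Of 12 co-regulator genes 10 had a log2 fold change above 0, as did 9859 of the 18243 genes tested. On all 9 tumours edgeR and DESeq2 each called 0 of the 12, where edgeR called 0% and DESeq2 3.66% of all genes. Crebbp, which encodes the acetyltransferase CBP, was at 30.7, 35.8, 28.0, 35.8 and 34.0 CPM in CD43-KO replicates 1 to 5, against 25.4, 27.0, 27.7 and 18.9 CPM in Vec replicates 1 to 4. The lowest CD43-KO tumour was just above the highest Vec tumour (0.41 ± 0.13 log2, edgeR adjusted p = 0.235). The related acetyltransferase gene Ep300, the Mediator gene Med1 and the coactivator gene Ncoa1 differed by 0.44 ± 0.19, 0.33 ± 0.11 and 0.29 ± 0.13 log2 (edgeR adjusted p of 0.317, 0.256 and 0.326).

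Genes known to respond to retinoic acid lay on both sides of 0. Of 22 in the list, 16 were tested, 10 with a log2 fold change above 0 and 6 below (median 0.08), and edgeR called 0. Over all genes tested 9859 lay above 0 and 8384 below. Ccr9, the gut homing receptor of T cells, was at 1.31, 1.19, 3.25, 0.221 and 1.12 CPM in CD43-KO replicates 1 to 5, and at 0.1105, 0.432, 0.817 and 0.591 CPM in Vec replicates 1 to 4. Its log2 fold change was 1.53 ± 0.70 (edgeR adjusted p = 0.332), and 0.97 without CD43-KO replicate 3. The homeobox genes Hoxa4, Hoxb4 and Meis1 differed by 0.41 ± 0.19, 0.31 ± 0.15 and -0.30 ± 0.20 log2 (edgeR adjusted p of 0.345, 0.361 and 0.484).

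**Figure D3:**
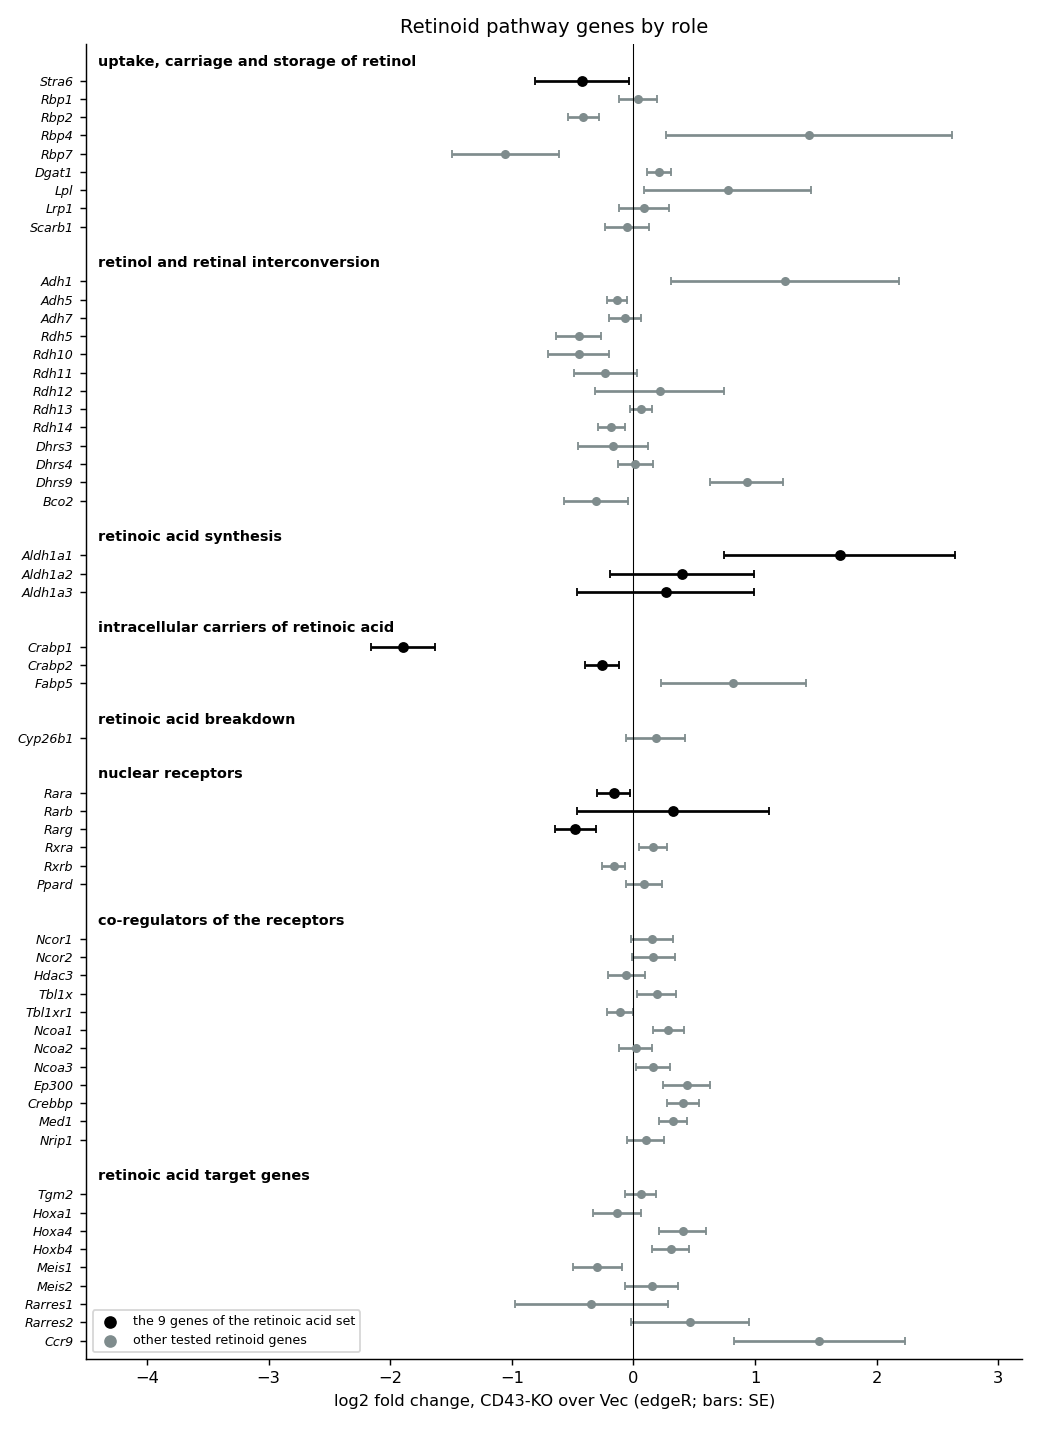
The edgeR log2 fold change (CD43-KO over Vec, horizontal axis) of every tested retinoid gene, listed by role, with its SE as a bar. Black points are the 9 genes and grey points the further retinoid genes. Crabp1 lies at -1.90, and the widest bars belong to genes at low levels, such as Rbp4 and Aldh1a1.

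The neighbours of Crabp1 on chromosome 9 were closer to 0. The 5 nearest tested genes on each side, from Cib2 220 kb before to Fbxo22 444 kb after its start, had log2 fold changes from -0.52 (Dnaja4) to 0.57 (Cib2). The groups overlapped in all 10, where they did not overlap in 5.59% of all genes tested. EdgeR called 0 of them, as of all genes, and DESeq2 called 0, where it called 3.66% of all genes. Hykk had no adjusted p from DESeq2. Since Crabp1 was chosen for its difference, smaller differences beside it are a description and no test. Wdr61, the nearest on the left, was at 49.6 to 60.0 CPM in CD43-KO and 53.7 to 64.2 CPM in Vec tumours. Ireb2, the nearest on the right and an RNA-binding regulator of iron handling, was at 80.7 to 90.8 CPM in CD43-KO and 66.3 to 85.4 CPM in Vec tumours (0.15 ± 0.09 log2, edgeR adjusted p = 0.443).

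**Figure D4:**
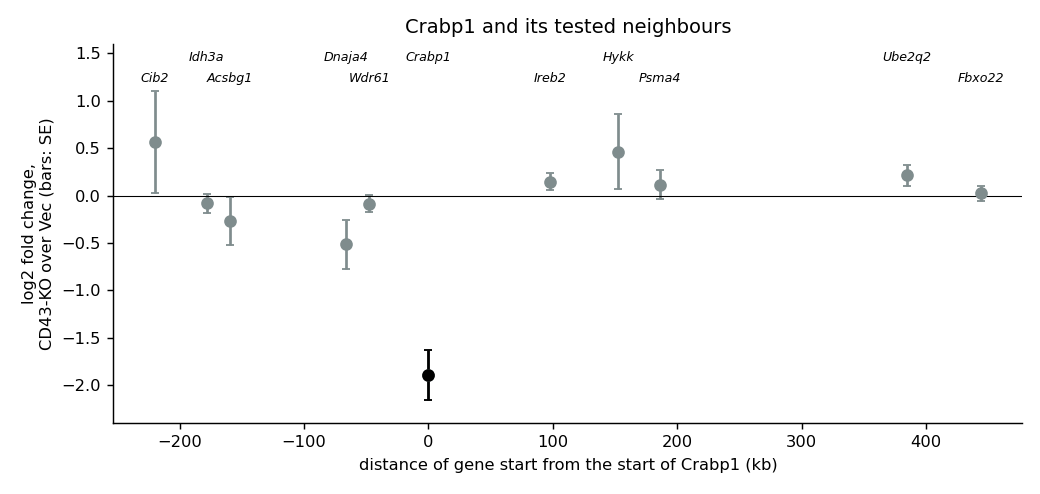
The edgeR log2 fold change (CD43-KO over Vec, vertical axis, bars are SE) of Crabp1 and the 5 nearest tested genes on each side, by the distance of the gene start from that of Crabp1 in kb. Crabp1 is in black at -1.90, and the 10 neighbours lie between -0.52 and 0.57.

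Among 12441 named genes with a mean of at least 1 CPM, those most like Crabp1 over the 9 tumours were ranked by Pearson's r of log2 CPM. The r of the first 6, which were Rsph3a, Cdc42ep2, P3h4, Mpst, Dap and Fggy, ran from 0.988 to 0.980. In all 6 the groups did not overlap, with CD43-KO on the low side, a shape that likeness to Crabp1 asks for. Cdc42ep2, an effector of the GTPase CDC42, was at 22.6, 25.9, 19.1, 29.3 and 25.0 CPM in CD43-KO replicates 1 to 5, against 51.0, 50.2, 38.9 and 68.4 CPM in Vec replicates 1 to 4. When only the deviations from the group means were compared, the first 6 were Dap, Txndc5, P3h4, Abhd8, Mpst and Irf2bp1, with r from 0.991 to 0.970 over the 9 tumours. Dap, Mpst and P3h4 stood in both groups of 6. Dap, a death-associated protein gene, was at 315, 315, 308, 394 and 369.8 CPM in CD43-KO replicates 1 to 5, against 457, 448, 404 and 531.98 CPM in Vec replicates 1 to 4. Of the retinoic acid genes, Stra6 came 75th by deviations (r = 0.905) and Rarg 439th (r = 0.807), while Crabp2 came 4520th (r = 0.226). All points share a library with its depth and its mixture of cells.

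**Figure D5:**
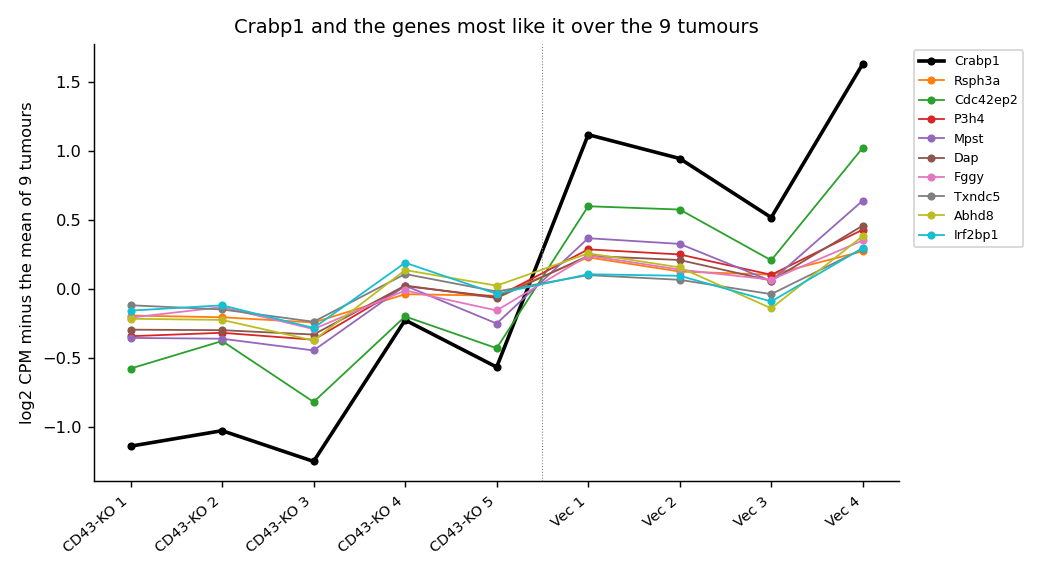
The log2 CPM of Crabp1 (black) and of the 9 genes most like it, each minus its mean over the 9 tumours (vertical axis), with the 5 CD43-KO tumours left and the 4 Vec tumours right of the dotted line. Lines only join the points of a gene. Crabp1 has the widest span, CD43-KO replicate 4 is the highest CD43-KO tumour and Vec replicate 3 the lowest Vec tumour for Crabp1.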

How the data were processed

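Bulk RNA-seq counts of 5 CD43-KO and 4 Vec tumours were used. The authors deposited 1 table of whole-number counts per gene name for each library, unscaled. HISAT2 2.1.0, StringTie 1.3.5, DESeq2 and the build GRCm38 are named in the submitters' processing notes, without role or order. For the counter, annotation and strand setting, the sources used here give nothing. The values may thus hold reads of overlapping genes.

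The 9 genes and the gene lists were chosen with earlier results of these data known. Genes were kept by filterByExpr (minimum count 10, minimum total count 15), which left 18243 of 42454 names, and libraries were scaled by TMM. The main test was edgeR 4.0.16 (R 4.3.3), quasi-likelihood F test with robust estimation, group as the only term, Benjamini-Hochberg adjustment over all genes and a threshold of 0.05. The SE was taken as the absolute log2 fold change over the root of its F. DESeq2 1.42.0, limma 3.58.1 voom with sample quality weights, RLE scaling, other filters and leaving out each tumour were alternatives. The scripts were tested on simulated data. No library pair agreed within sampling noise (over 36 pairs the smallest chi-square was 32.9 per degree of freedom). The floor for a count of 0 is 3 counts and covers counting error only, since reads are not independent molecules.

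Named were the 9 genes, up to 4 further genes per role list with the smallest p, the 6 genes most like Crabp1 by each of 2 measures (log2 CPM with a prior count of 2, predicted, copy and receptor segment names skipped) and its 5 tested neighbours per side. Gene places are those of RefSeq, GRCm38.p6.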

Additional observations from a re-analysis of the deposited data

Results flagged for a closer look

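In 98 groups of 4 or 5 values, over the genes named here, 6 had a tumour far from the others by Dixon's test at 95%, where chance flags about 1 in 20 groups. Of these 6, 4 were in CD43-KO replicate 3. Aldh1a1 was at 17.1 CPM there, and at 0.947 to 5.33 CPM in the remaining 4 tumours of the group. Rbp4 was at 4.11 CPM, against 0.046 to 0.324 CPM. The neighbours of Crabp1, Idh3a and Psma4, were at 98.7 and 253 CPM, with 79.1 to 83.5 CPM and 157 to 179.75 CPM in the remaining 4. Hoxb4 reached 11.6 CPM in CD43-KO replicate 5, with 8.51 to 9.38 CPM in the others of that group, and Wdr61 at 64.2 CPM in Vec replicate 4, with 53.7 to 54.7 CPM in the other Vec tumours.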

How the results depend on the processing

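The edgeR count of genes called, 0 of 18243, was 0 with RLE scaling, with a minimum count of 30 and with the leukocyte covariate, 1 without a filter and 0 to 29 when 1 tumour was left out, the 29 without Vec replicate 3. DESeq2 called 612, voom with quality weights 497 and DESeq2 without CD43-KO replicate 3 called 1204. Of the 9 genes, DESeq2 (with and without that tumour) and voom each called 1, as did edgeR without Vec replicate 3, and leaving out tumours gave 0 to 1. It was Crabp1 each time, which was chosen on these values, so that its calls and sign are no support. Of the further retinoid genes 0 were called, except by DESeq2 without CD43-KO replicate 3, which called 3 (Rbp2 lower, Dhrs9 and Crebbp higher). The leukocyte covariate and DESeq2 without that tumour were added after the data were seen.

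Crabp2 and Rarg kept a negative sign under every alternative. With the covariate the signs of Aldh1a1 (-0.51), Aldh1a2 (-1.05), Aldh1a3 (-1.76), Rara (0.017) and Stra6 (0.14) turned. Voom turned Aldh1a2 (-0.20) and Aldh1a3 (-0.15), and DESeq2 without CD43-KO replicate 3 gave -0.10 and -0.19. When 1 tumour was left out, Aldh1a2 ran from -0.10 to 0.67, Aldh1a3 from -0.19 to 0.55 and Rarb from -0.10 to 0.89. The cause was not tested. Adding copy names was not run, since 0 of the 9 genes have one. No paired analysis was possible because replicate numbers follow accession order and pair no tumours. Depth limits genes at low counts, such as Rarb, Cyp26a1, Aldh1a2 and Rbp7.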
